A study of Homo sapiens with 9 samples.

Results

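The genes described here are those that carry glucose through glycolysis to lactate or acetyl-CoA and through the pentose phosphate pathway. They were taken by name: 33 symbols fixed as a list, of the 21417 symbols in the deposited table, each represented by its transcript with the highest mean over all libraries. All 33 were found, and all 33 passed the minimum mean of 0.5 RPKM that left 14473 genes to test. RPKM divides the reads on a transcript by its length and by the reads of the library, so levels of different genes are compared per length. The libraries were made from H9 cells, a line of human embryonic stem cells. Neuroectoderm had been exposed to 200 nM NOGGIN, an inhibitor of BMP signals, and 10 µM SB431542, which blocks activin and Nodal receptors, and was taken at day 5. Mesendoderm had been exposed to 5 ng/ml human BMP4 in mTeSR1 medium and was also taken at day 5. The undifferentiated cells (hESC) were grown on Matrigel in mTeSR1 and taken at day 0. Each group has 3 libraries of total RNA depleted of ribosomal RNA, all of the same line, and nothing in the labels says that they came from separate cultures. The p-values therefore measure the spread between these libraries, which may be technical.

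Glycolysis splits glucose into pyruvate and yields ATP without oxygen. Pyruvate is then either reduced to lactate by lactate dehydrogenase and exported by monocarboxylate transporters, or passed into mitochondria, where the pyruvate dehydrogenase complex turns it into acetyl-CoA. The pentose phosphate pathway branches off after the first step and supplies NADPH and ribose for nucleotides. Pluripotent stem cells in culture are known for a high flux of glucose to lactate.

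The labelled cell types were checked against marker genes. PAX6 had 20.1 to 33.4 RPKM in the neuroectoderm libraries and at most 0.11 RPKM in all others, while the forebrain genes LHX2 and SIX3 stayed at 0.04 to 0.20 RPKM in neuroectoderm. The primitive streak gene T had 23.2 to 30.8 RPKM in mesendoderm and at most 0.18 RPKM elsewhere. Of the endoderm markers, CER1 had 44.6 to 70.9 RPKM in mesendoderm and at most 0.75 RPKM elsewhere. SOX17 and FOXA2 had at most 0.32 and 0.06 RPKM in mesendoderm. CXCR4 had 6.03 to 12.2 RPKM in neuroectoderm and 0.32 to 1.23 RPKM in mesendoderm. Of the mesoderm markers, HAND1 had 41.85 to 85.3 RPKM in mesendoderm and KDR 80.7 to 86.4 RPKM. TBX20, PDGFRA and GATA4 had 0.27 to 4.9 RPKM there. NANOG, a pluripotency factor, had 0.08 to 0.18 RPKM in neuroectoderm, 7.68 to 18.4 RPKM in mesendoderm and 20.7 to 23.2 RPKM in hESC. TDGF1, L1TD1, DPPA4 and ZSCAN10 of the same hESC list had the same order of groups. LIN28A and SOX2 of that list were higher in neuroectoderm than in mesendoderm. LIN28A averaged 275 RPKM in neuroectoderm, 174 RPKM in mesendoderm and 307 RPKM in hESC. SOX2, also a neural gene, averaged 42.6, 3.11 and 63.3 RPKM in the same order. Of 4 neural crest markers, PAX3, a gene of dorsal neural tissue and neural crest, had 48.3 to 82.8 RPKM in neuroectoderm and at most 0.16 RPKM elsewhere, and TFAP2B had 1.55 to 1.86 RPKM in neuroectoderm and at most 0.48 RPKM elsewhere. SOX10 had 0.49 to 1.25 RPKM in neuroectoderm, 0.47 to 0.84 RPKM in mesendoderm and 0.95 to 1.45 RPKM in hESC, and was not called. FOXD3 had 0.33 to 1.13, 0.38 to 1.68 and 3.8 to 6.48 RPKM in the same order. It was lower in neuroectoderm than in hESC (-1.77 ± 0.29, limma adjusted p = 0.00106). The 4 summed to 50.7 to 86.8 RPKM in neuroectoderm, 1.49 to 2.63 RPKM in mesendoderm and 4.83 to 7.63 RPKM in hESC. Most of the neuroectoderm sum was PAX3. Their part in the neuroectoderm results was not tested. Mesendoderm also held markers of trophoblast and amnion. The 8 measured markers of that list summed to 103 to 142 RPKM in mesendoderm, 4.96 to 7.67 RPKM in neuroectoderm and 6.74 to 9.24 RPKM in hESC, with CGA at 0.02 to 0.06 RPKM in mesendoderm. Their part in the mesendoderm results was not tested. These are bulk libraries, so fewer cells of a type and less RNA per cell cannot be told apart.

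hESC 2, neuroectoderm 1 and mesendoderm 1 stood apart from their groups. Across genes, the deviation of these libraries from their group mean fell with the GC content of the transcript (Spearman correlations of -0.619, -0.563 and -0.29), while the other 6 libraries had correlations of 0.195 to 0.587. Small RNA took 10.6% of the RPKM-weighted length in neuroectoderm 1 and 5.20% to 7.04% in the others. The 33 genes are richer in GC than the rest, with a median of 54.4% over the 31 whose GC content is known, against 49.7% over the genes tested. Neuroectoderm 1 was the lowest of its group for 28 of the 33 genes, against 58.1% of all genes tested. Calls that changed when these 3 libraries were left out together are given with each comparison. The RPKM denominators were 36.5 to 69.5 M reads per library, at which 3 reads on a transcript of 1 kb amount to 0.0432 to 0.0822 RPKM.

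In neuroectoderm against hESC genes fell at most steps, among them both hexokinases, both aldolases, the main enolase, both lactate dehydrogenases and transketolase, while neither SLC2A1 nor SLC2A3 and none of the 3 phosphofructokinase genes was called. With limma and Benjamini-Hochberg adjustment over all genes, 16 of the 33 genes fell and 1 rose, while 16 were not called. Over all genes tested, 44.2% were called, 22.3% lower and 21.9% higher, and for the 33 genes the shares were 48.5% and 3.03%. The median difference in log2(RPKM + 1) was -0.60 over the 33 genes and -0.02 over all genes. In 18 of the 33 genes every neuroectoderm library was below every hESC library (26.5% of all genes), and in 1 every one was above (25.4% of all genes). The median difference from the hESC mean was -1.17, -0.33 and -0.48 in neuroectoderm 1, 2 and 3, below 0 in each. Without neuroectoderm 1 the same 17 calls remained and 4 rises were added, so that 5 genes rose and 16 fell. Of all genes, 28% were then called higher and 23.3% lower. Leaving out hESC 2, neuroectoderm 1 and mesendoderm 1 together gave 5 genes higher and 18 lower, the additions being PFKL, PFKFB3, ENO2 and PKM (higher) and GAPDH and PGD (lower). Calls over all genes grew as well in that setting, to 30.7% higher and 27.5% lower.

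In mesendoderm against hESC fewer genes changed. SLC2A1, SLC2A3, PFKL, PGK1, PKM, the lactate exporter SLC16A3, PDK1 and PDHB rose, and HK2 and SLC16A1 fell. Of the 33 genes, 8 rose and 2 fell, and 23 were not called, against 35.1% of all genes called, 17.0% higher and 18.1% lower. Their median difference was 0.12 on the log2(RPKM + 1) scale, against -0.02 for all genes, and it was -0.02 without hESC 2. The counts moved with single libraries. Without hESC 2, 5 rose (14.6% of all genes). Without mesendoderm 3, 5 rose and 1 fell (12.6% and 12.5% of all genes). Without neuroectoderm 1, which enters through the shared spread, 9 rose and 5 fell (22.5% and 23.8% of all genes). Leaving out hESC 2, neuroectoderm 1 and mesendoderm 1 together gave 10 higher and 7 lower, the additions being HK1 and TKT (higher) and GPI, PFKM, ENO2, ENO3 and PGD (lower). Calls over all genes grew as well in that setting, to 22.8% higher and 24.3% lower. The groups did not overlap for 9 genes above hESC (26.0% of all genes) and 7 below (28.7% of all genes).

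Neuroectoderm against mesendoderm gave the most calls. Here 21 of the 33 genes were lower in neuroectoderm and 2 higher, against 24.1% and 24.0% of all genes (48.1% in either direction), and 10 were not called. The median difference was -0.88, against -0.01 for all genes. The groups did not overlap for 25 genes below mesendoderm (29.4% of all genes) and 2 above (27.8% of all genes). With the replicate number as a block 18 were lower and 2 higher (21.8% and 21.4% of all genes), the calls of GPI, PGAM1 and DLAT being lost (limma adjusted p = 0.0748, 0.057 and 0.0917). Without neuroectoderm 1 18 were lower and 4 higher (23.5% and 28.4% of all genes). Without the 3 libraries that stood apart 23 were lower and 4 higher (28.1% and 32.3% of all genes), the additions being TPI1 and PKM (lower) and PFKM and PFKFB3 (higher). These 3 comparisons share libraries, and so are not independent of each other. By group means, neuroectoderm was the lowest group for 23 genes, hESC for 5 and mesendoderm for 5. Mesendoderm was the highest for 18, hESC for 11 and neuroectoderm for 4. These means include neuroectoderm 1, the lowest of all 9 libraries for 25 of the 33 genes. Such counts were not made over all genes or without that library.

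**Figure D1:**
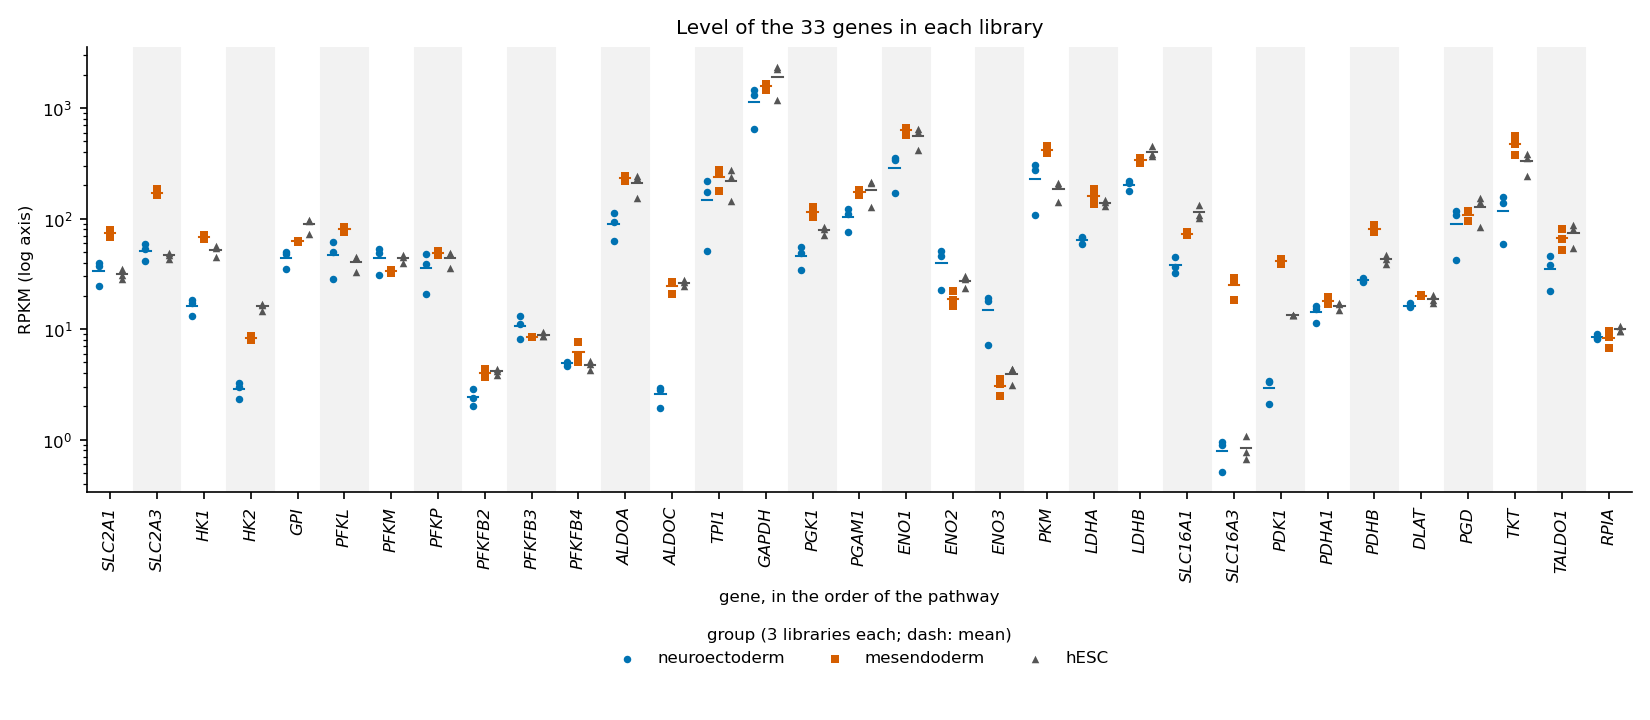
Level of each of the 33 genes in RPKM (log axis) in the 3 neuroectoderm (circles), 3 mesendoderm (squares) and 3 hESC libraries (triangles), with a dash at the group mean, in the order of the pathway. GAPDH is the most abundant in every library, and SLC16A3 lies between 18.3 and 29.3 RPKM in mesendoderm and at or below 1.08 RPKM in both other groups.

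**Figure D2:**
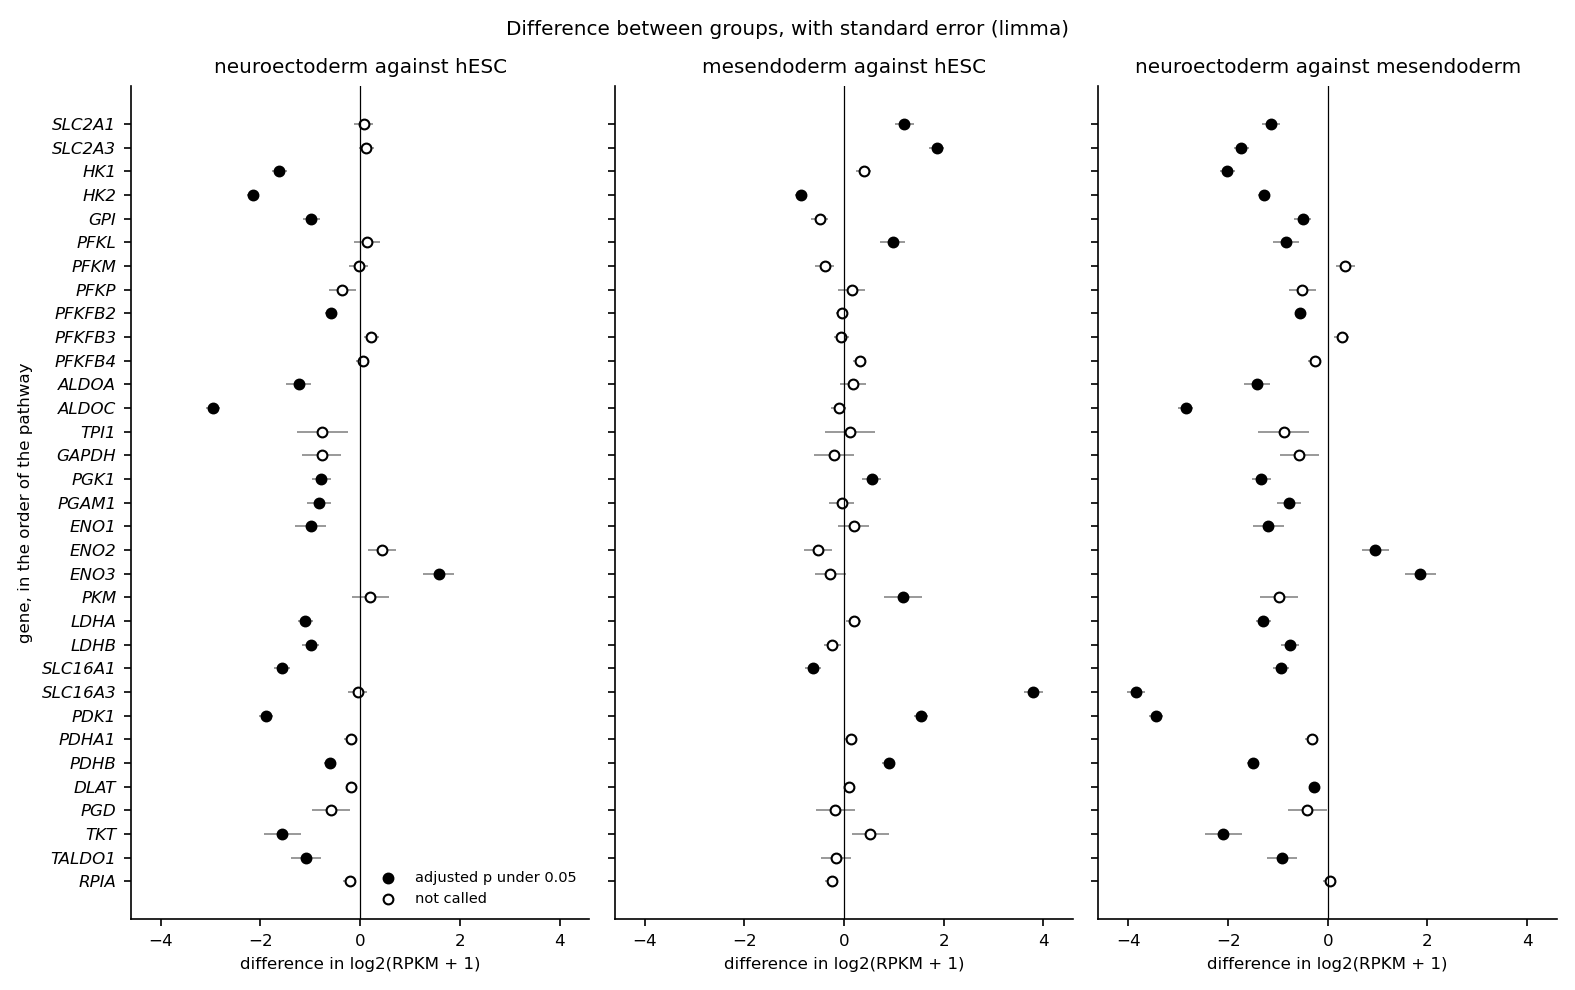
Difference in log2(RPKM + 1) with its standard error for the 33 genes in neuroectoderm against hESC, mesendoderm against hESC and neuroectoderm against mesendoderm. Filled points passed an adjusted p of 0.05. The left panel has 16 filled points below 0 and 1 above, the middle panel 2 below and 8 above, and the right panel 21 below and 2 above.

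Several glycolytic genes are known targets of hypoxia-inducible factors and of MYC, which bind DNA at related sites. Promoters were therefore searched for the letters ACGTG on either strand, the core of the hypoxia response element, which also lies within the E-box CACGTG. RefSeq promoters of GRCh38.p14, from 250 bases before to 50 bases after the annotated start, were matched for 30 of the 33 genes. The motif was in 11 of the 30 (36.7%), against 21.6% of 27305 promoters in the table and 26.4% of those of 10076 genes tested. At least 2 separate matches were in 5 of the 30 (16.7%), against 3.49% and 4.94%. The core of the antioxidant response element, TGACNNNGC on either strand, was in 5 of the 30 (16.7%), against 13.6% and 15%. A match says only that the letters are there. The 5 promoters with at least 2 matches are shown, as the 250 bases before the start, with the matches in capitals; where the motif reads the same on both strands the capitals cover the whole E-box.
HK2 (chr2:74833877-74834126, plus strand): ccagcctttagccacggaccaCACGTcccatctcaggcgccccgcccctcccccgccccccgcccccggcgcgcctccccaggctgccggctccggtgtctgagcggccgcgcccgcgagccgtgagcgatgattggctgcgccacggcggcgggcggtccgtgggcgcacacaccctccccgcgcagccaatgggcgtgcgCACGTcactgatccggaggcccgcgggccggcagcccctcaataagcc
ALDOC (chr17:28576896-28577145, minus strand): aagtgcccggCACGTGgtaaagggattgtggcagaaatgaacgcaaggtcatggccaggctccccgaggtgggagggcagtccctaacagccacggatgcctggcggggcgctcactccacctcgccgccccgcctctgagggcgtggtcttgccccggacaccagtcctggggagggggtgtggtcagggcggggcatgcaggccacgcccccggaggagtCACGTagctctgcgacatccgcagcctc
PGK1 (chrX:78103998-78104247, plus strand): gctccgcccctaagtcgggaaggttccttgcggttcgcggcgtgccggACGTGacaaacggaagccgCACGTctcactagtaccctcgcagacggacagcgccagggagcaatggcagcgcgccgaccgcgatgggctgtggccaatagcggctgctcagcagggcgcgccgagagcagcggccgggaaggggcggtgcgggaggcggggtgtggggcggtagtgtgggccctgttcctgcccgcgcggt
LDHA (chr11:18394313-18394562, plus strand): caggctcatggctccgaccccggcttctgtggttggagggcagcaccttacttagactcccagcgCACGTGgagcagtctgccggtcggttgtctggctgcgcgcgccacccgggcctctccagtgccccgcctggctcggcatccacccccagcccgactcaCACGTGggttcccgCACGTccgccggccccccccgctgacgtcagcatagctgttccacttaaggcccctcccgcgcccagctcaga
PDHB (chr3:58433833-58434082, minus strand): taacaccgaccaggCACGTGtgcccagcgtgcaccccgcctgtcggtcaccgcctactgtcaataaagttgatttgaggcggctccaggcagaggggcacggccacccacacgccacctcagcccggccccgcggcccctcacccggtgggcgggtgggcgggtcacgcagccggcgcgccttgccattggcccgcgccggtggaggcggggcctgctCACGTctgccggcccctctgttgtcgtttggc
LDHA has 3 matches in the printed stretch, and HK2, ALDOC, PGK1 and PDHB have 2 each. All 5 genes were called lower in neuroectoderm against hESC, as were 11 others of the 33, against 22.3% of all genes. In mesendoderm against hESC, PGK1 and PDHB were called higher, HK2 lower, and ALDOC and LDHA were not called. A link between the motif and these changes was not tested.

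The order of the pathway is followed from here, values are RPKM in libraries 1, 2 and 3 of a group, and differences are in log2(RPKM + 1) ± SE with limma's adjusted p. Glucose enters through facilitative transporters, of which SLC2A1 (GLUT1) is the common form and SLC2A3 (GLUT3) a high-affinity form of neurons and early embryos. SLC2A1 had 24.4, 39.6 and 36.9 in neuroectoderm, 78.8, 68.4 and 74.9 in mesendoderm and 30.7, 28.5 and 35.01 in hESC. SLC2A3 had 41.6, 53.1 and 58.98 in neuroectoderm, 163, 163 and 186 in mesendoderm and 42.9, 47.03 and 49.4 in hESC. Both were high in every mesendoderm library, and neuroectoderm overlapped hESC for both. In mesendoderm against hESC, SLC2A3 rose by 1.86 ± 0.16, adjusted p = 2.82e-05, and SLC2A1 by 1.21 ± 0.19, adjusted p = 0.00102. In neuroectoderm against hESC neither was called (0.13 ± 0.16, adjusted p = 0.555 for SLC2A3, 0.07 ± 0.19, adjusted p = 0.786 for SLC2A1). SLC2A14, a near-identical copy of SLC2A3 whose reads may be shared with it, averaged 4.0 ± 2.3 RPKM in neuroectoderm, 14.7 ± 0.88 RPKM in mesendoderm and 4.20 ± 1.2 RPKM in hESC (SD, n = 3 each), and is uncertain for that reason.

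Hexokinases trap glucose in the cell by phosphorylating it. HK1, the widespread form, had 13.2, 18.3 and 17.2 in neuroectoderm, 65.5, 68.6 and 70.6 in mesendoderm and 54.00, 44.6 and 56.9 in hESC. HK2, the form of insulin-sensitive tissue and of many tumours, had 2.33, 3.25 and 3.0 in neuroectoderm, 8.73, 7.92 and 8.42 in mesendoderm and 16.7, 14.6 and 17.04 in hESC. Neuroectoderm lay below every other library for both, and HK2 placed the 3 groups in order without overlap. Against hESC, HK2 in neuroectoderm fell 5.64-fold (-2.15 ± 0.12, adjusted p = 1.28e-06) and HK1 3.199-fold (-1.62 ± 0.15, adjusted p = 3.76e-05). In mesendoderm against hESC, HK2 fell as well (-0.87 ± 0.12, adjusted p = 4.25e-04), while HK1 was not called (0.40 ± 0.15, adjusted p = 0.0732); without the 3 libraries that stood apart HK1 was called higher there. GPI, the isomerase of the next step, had group means of 44.5 ± 8.09 RPKM in neuroectoderm, 62.6 ± 0.534 RPKM in mesendoderm and 88.5 ± 13.3 RPKM in hESC. It was lower in neuroectoderm than in hESC (-0.98 ± 0.17, adjusted p = 0.00164) and than in mesendoderm (-0.50 ± 0.17, adjusted p = 0.0393), the second call being lost in 10 of the 19 alternatives run.

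Phosphofructokinase commits the sugar to glycolysis. None of its 3 genes, PFKL (liver form), PFKM (muscle form) and PFKP (platelet form), was called in neuroectoderm against hESC, with differences of 0.14, -0.03 and -0.36. PFKL rose in mesendoderm against hESC, with 81.1, 76.1 and 84.2 RPKM in mesendoderm and 44.01, 33.2 and 44.8 RPKM in hESC (0.98 ± 0.26, adjusted p = 0.0164); without hESC 2 the adjusted p was 0.0598 and without mesendoderm 3 it was 0.0581. In neuroectoderm PFKL had 28.7, 60.97 and 50.4 RPKM, below every mesendoderm library (-0.84 ± 0.26, adjusted p = 0.024); the adjusted p was 0.0604, 0.0522 and 0.0727 without mesendoderm 1, 2 and 3. Without neuroectoderm 1 PFKL was called higher than in hESC, by 0.45 ± 0.16 (limma adjusted p = 0.039). The bifunctional PFKFB enzymes set the level of the sugar phosphate that activates phosphofructokinase. They were low in all groups, at 2.04 to 13.1 RPKM. PFKFB2 was lower in neuroectoderm, at 2.9, 2.04 and 2.41 RPKM, than in mesendoderm at 4.38, 3.69 and 4.0 RPKM and hESC at 3.87, 4.2 and 4.4 RPKM (-0.59 ± 0.11, adjusted p = 0.00256 against hESC). PFKFB3 and PFKFB4 were not called in any of the 3 comparisons, and without neuroectoderm 1 PFKFB3 was higher in neuroectoderm than in hESC by 0.40 ± 0.09 (limma adjusted p = 0.00808).

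Aldolase cleaves the phosphorylated sugar. ALDOA, the main form, had 62.2, 113 and 92.7 in neuroectoderm, 221, 241 and 239 in mesendoderm and 245, 153 and 232 in hESC. ALDOC, a form of the brain, had 1.92, 2.84 and 2.96 in neuroectoderm, 20.9, 26.3 and 26.8 in mesendoderm and 27.96, 24.5 and 26.9 in hESC. Both were lowest in all 3 neuroectoderm libraries, and mesendoderm overlapped hESC for both. ALDOC was 10.3-fold lower in neuroectoderm than in hESC (-2.95 ± 0.15, adjusted p = 9.46e-07), the largest difference of the 33 genes in that comparison, and ALDOA 2.35-fold lower (-1.23 ± 0.26, adjusted p = 0.00416). Neither was called in mesendoderm against hESC (-0.10 ± 0.15, adjusted p = 0.641 for ALDOC, 0.18 ± 0.26, adjusted p = 0.624 for ALDOA).

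The next 4 enzymes take triose phosphates to phosphoglycerate and yield NADH and the first ATP. PGK1, phosphoglycerate kinase, had 33.99, 55.6 and 48.7 in neuroectoderm, 103, 128 and 117 in mesendoderm and 83.3, 71.1 and 80.3 in hESC, and the 3 groups did not overlap. It fell in neuroectoderm against hESC (-0.78 ± 0.19, adjusted p = 0.00996). In mesendoderm it was higher than in hESC at the edge of the threshold (0.56 ± 0.19, adjusted p = 0.0498), and 11 of 21 alternatives lost that call, with adjusted p-values of 0.0657 to 0.144 when a mesendoderm library was left out. PGAM1, phosphoglycerate mutase, was lower in neuroectoderm at 102 ± 24.2 RPKM than in mesendoderm at 173 ± 9.56 RPKM and hESC at 183 ± 47.9 RPKM (-0.82 ± 0.25, adjusted p = 0.0246 against hESC). The call against hESC was lost without hESC 1 and without hESC 3 (adjusted p = 0.088 and 0.0912). That against mesendoderm was lost without neuroectoderm 1 or any 1 mesendoderm library (adjusted p of up to 0.0876). The replicate block lost both calls, and a fit of only the groups compared lost that against hESC. GAPDH and TPI1 were not called in any comparison, and their libraries were spread widely. Without the 3 libraries that stood apart, GAPDH was lower in neuroectoderm than in hESC (-0.72 ± 0.24, limma adjusted p = 0.036) and TPI1 was lower in neuroectoderm than in mesendoderm (-0.44 ± 0.15, limma adjusted p = 0.0415). GAPDH, often used as a reference gene, had 643, 1458 and 1316 in neuroectoderm, 1471, 1642 and 1668 in mesendoderm and 2342, 1172 and 2238 in hESC. TPI1, triose phosphate isomerase, had 51.4, 219 and 174 in neuroectoderm, 177, 274 and 258 in mesendoderm and 278, 144 and 241 in hESC. For both genes neuroectoderm 1 and hESC 2 were the lowest of their groups. GAPDH, PGK1, PGAM1, TPI1, ENO1, LDHA and LDHB have processed copies elsewhere in the genome, and how reads that match several places were counted is not given in the sources used here, so their levels are uncertain to that extent.

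The enolases moved in opposite directions in neuroectoderm. ENO1, the main form, had 172, 355 and 339 in neuroectoderm, 569.8, 654 and 667 in mesendoderm and 650.3, 415 and 609.8 in hESC. ENO2, known as neuron-specific enolase, had 22.6, 50.6 and 45.5 in neuroectoderm, 16.2, 22.1 and 18.4 in mesendoderm and 28.4, 23.7 and 30.5 in hESC. ENO3, the form of muscle, had 7.19, 18.1 and 19.1 in neuroectoderm, 2.49, 3.19 and 3.53 in mesendoderm and 4.32, 3.11 and 4.39 in hESC. ENO3 was higher in every neuroectoderm library than in any other, and ENO1 was lower in every neuroectoderm library than in any other. ENO3 was the single gene of the 33 that rose in neuroectoderm against hESC (1.58 ± 0.31, adjusted p = 0.0033), and ENO1 fell (-0.99 ± 0.31, adjusted p = 0.0293). The ENO1 call was lost without hESC 1 and without hESC 3 (adjusted p = 0.0966 and 0.0942). It was also lost with the replicate block and when the fit held only the groups compared. ENO2 was not called against hESC (0.44 ± 0.28, adjusted p = 0.236), but it was 0.79 ± 0.15 higher without neuroectoderm 1 (limma adjusted p = 0.00288). Against mesendoderm both ENO2 (0.96 ± 0.28, adjusted p = 0.0191) and ENO3 (1.86 ± 0.31, adjusted p = 0.00116) were higher in neuroectoderm; the ENO2 call was lost without neuroectoderm 2, neuroectoderm 3, mesendoderm 1 or mesendoderm 3 (adjusted p of 0.0567 to 0.0675).

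Markers of neurons and muscle were read beside these forms. The 6 neuronal markers summed to 96.2 to 105 RPKM in neuroectoderm, 17.8 to 22.4 RPKM in mesendoderm and 24.0 to 48.6 RPKM in hESC. In neuroectoderm MAP2 made up 82.9 to 89.0 RPKM of that sum, while ELAVL3, ELAVL4 and NEUROG2 were at 0.04 to 1.14 RPKM. TUBB3, a tubulin of the same list, had 2.64, 18.06 and 13.83 RPKM in neuroectoderm, 13, 19.68 and 17.55 RPKM in mesendoderm and 44.43, 18.82 and 43.63 RPKM in hESC, and was lower in neuroectoderm than in hESC (-1.76 ± 0.58, limma adjusted p = 0.0363). The 6 markers of skeletal and cardiac muscle summed to 5.81 to 9.73 RPKM in neuroectoderm, 1.65 to 2.42 RPKM in mesendoderm and 3.57 to 5.14 RPKM in hESC. TNNT2 had 4.89 to 9.15 RPKM in neuroectoderm, 0.65 to 1.44 RPKM in mesendoderm and 2.92 to 4.35 RPKM in hESC, and MYOG and CKM were at or near 0 in all groups (at most 0.06 and 0.33 RPKM). Their part in the enolase results was not tested.

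PKM, pyruvate kinase, makes pyruvate and ATP. It had 108, 309 and 274 in neuroectoderm, 391, 400.2 and 450.0 in mesendoderm and 209, 141 and 202 in hESC. All 3 mesendoderm libraries were above all others, and neuroectoderm spread from below hESC to above it. PKM rose in mesendoderm against hESC (1.18 ± 0.37, adjusted p = 0.0364), a call lost without any 1 library of either group (adjusted p of 0.0639 to 0.117). The replicate block lost that call as well. Against mesendoderm the difference in neuroectoderm was not called (-0.98 ± 0.37, adjusted p = 0.057), and against hESC it was not either (0.20 ± 0.37, adjusted p = 0.695). Without neuroectoderm 1 PKM was higher in neuroectoderm than in hESC by 0.68 ± 0.20 (limma adjusted p = 0.0217). The transcript rows of PKM share most exons, and its muscle and embryonic splice forms cannot be told apart in these values.

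Lactate dehydrogenase converts pyruvate to lactate and back. LDHA, the form that favours lactate, had 58.4, 68.5 and 66.7 in neuroectoderm, 186, 137 and 158 in mesendoderm and 142, 129 and 146 in hESC. LDHB, the form of heart and brain, had 178, 211 and 219.6 in neuroectoderm, 317, 355 and 356 in mesendoderm and 388, 372 and 451 in hESC. Both were lower in neuroectoderm than in any library of the other groups. Against hESC, LDHA fell 2.16-fold (-1.10 ± 0.16, adjusted p = 4.80e-04) and LDHB 1.99-fold (-0.99 ± 0.17, adjusted p = 0.00151). In mesendoderm neither was called (0.19 ± 0.16, adjusted p = 0.377 for LDHA, -0.23 ± 0.17, adjusted p = 0.331 for LDHB).

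Lactate leaves the cell through monocarboxylate transporters. SLC16A1 (MCT1), which moves lactate both ways, had 45.1, 32.3 and 36.6 in neuroectoderm, 72.6, 75.1 and 71.6 in mesendoderm and 102, 132 and 108 in hESC. It fell in neuroectoderm 3.0-fold (-1.56 ± 0.16, adjusted p = 6.39e-05) and in mesendoderm 1.56-fold (-0.63 ± 0.16, adjusted p = 0.0147) against hESC. The mesendoderm call was lost with quantile normalization, without hESC 2 and without mesendoderm 3 (adjusted p = 0.0786, 0.0503 and 0.0567). SLC16A3 (MCT4), the exporter of highly glycolytic cells, had 0.51, 0.96 and 0.89 in neuroectoderm, 29.3, 18.3 and 27.7 in mesendoderm and 1.08, 0.67 and 0.78 in hESC. It was low in both other groups and high in mesendoderm alone. Its means stood at 25.1 ± 5.96 RPKM in mesendoderm and 0.843 ± 0.212 RPKM in hESC, a ratio of 29.7 (3.80 ± 0.19, adjusted p = 1.19e-06). That was the largest difference of the 33 genes in mesendoderm against hESC, and every alternative kept the call.

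The pyruvate dehydrogenase complex is the gate to the mitochondrion, and PDK1 is a kinase that closes it. PDK1 had 2.11, 3.35 and 3.38 in neuroectoderm, 38.7, 42.95 and 42.3 in mesendoderm and 13.4, 13.5 and 13.5 in hESC, and the 3 groups stood apart. It was 4.56-fold lower in neuroectoderm than in hESC (-1.89 ± 0.14, adjusted p = 8.74e-06) and 3.07-fold higher in mesendoderm (1.55 ± 0.14, adjusted p = 4.21e-05). That left PDK1 in neuroectoderm 14.02-fold below mesendoderm (-3.44 ± 0.14, adjusted p = 1.73e-07). Of the other kinases of the complex, PDK2 averaged 10.8 RPKM in neuroectoderm, 4.75 RPKM in mesendoderm and 7.19 RPKM in hESC. PDK2 was higher in neuroectoderm than in mesendoderm (1.03 ± 0.22, limma adjusted p = 0.0041). PDK3 averaged 7.86, 9.57 and 13.8 RPKM in the same order of groups, and PDK4 had at most 0.22 RPKM. The PDK1 row used is a transcript annotated as non-coding; a coding row of the gene, which shares exons with it, had 2.42, 2.61 and 3.29 RPKM in neuroectoderm, 34.4, 38.5 and 36.7 RPKM in mesendoderm and 11.1, 13.6 and 12.03 RPKM in hESC. PDHB, the beta subunit of the first enzyme of the complex, had 27.5, 29.3 and 26.97 in neuroectoderm, 77.3, 76.2 and 88.3 in mesendoderm and 38.8, 47.1 and 42.9 in hESC. PDHB went the same ways as PDK1, lower in neuroectoderm (-0.60 ± 0.12, adjusted p = 0.00381) and higher in mesendoderm (0.89 ± 0.12, adjusted p = 5.26e-04) than in hESC. PDHA1, the alpha subunit, and DLAT, the second enzyme, differed little: PDHA1 lay between 11.5 and 19.5 RPKM and DLAT between 15.8 and 20.4 RPKM over all 9 libraries. PDHA1 was not called in any comparison, and DLAT was called lower in neuroectoderm than in mesendoderm (-0.28 ± 0.10, adjusted p = 0.0412), a call that 11 of 21 alternatives lost.

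Of the 4 pentose phosphate genes, TKT and TALDO1, which pass carbon between sugar phosphates in the reversible branch, fell in neuroectoderm. TKT, transketolase, had 59.2, 156 and 138 in neuroectoderm, 380.1, 562 and 477 in mesendoderm and 388, 244 and 356 in hESC. TALDO1, transaldolase, had 22.04, 45.9 and 38.2 in neuroectoderm, 51.5, 80.9 and 66.1 in mesendoderm and 87.4, 54.4 and 80.8 in hESC. Every neuroectoderm library was below every other library for both genes. Against hESC, TKT fell 2.799-fold (-1.57 ± 0.37, adjusted p = 0.00793) and TALDO1 2.097-fold (-1.08 ± 0.30, adjusted p = 0.0166), the TALDO1 call being lost without hESC 1 and without hESC 3 (adjusted p = 0.0633 and 0.0589). Neither was called in mesendoderm against hESC (0.53 ± 0.37, adjusted p = 0.304 for TKT, -0.16 ± 0.30, adjusted p = 0.723 for TALDO1). PGD, an oxidative enzyme that yields NADPH, averaged 89.5 ± 41.3 RPKM in neuroectoderm, 109 ± 12.3 RPKM in mesendoderm and 127 ± 38.05 RPKM in hESC. RPIA, the ribose isomerase, averaged 8.47 ± 0.486 RPKM in neuroectoderm, 8.29 ± 1.39 RPKM in mesendoderm and 9.97 ± 0.676 RPKM in hESC. Neither was called in any comparison. Without the 3 libraries that stood apart, PGD was lower than in hESC in neuroectoderm (-0.39 ± 0.10, limma adjusted p = 0.016) and in mesendoderm (-0.35 ± 0.10, limma adjusted p = 0.029).

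Shares of an isozyme within its family do not depend on the scaling between libraries. A GC trend of a library need not cancel in them, since genes of a family can differ in GC content. The transcript of SLC16A3 has 64.2% GC and that of SLC16A1 41.7%. Shares with the GC trend removed were not computed. Of 14 shares compared in 3 ways, 35 of the 42 tests had groups without overlap. Each of these reached an exact two-sided permutation p of 0.1, the smallest that 3 against 3 allow. After adjustment over the 42 tests it was 0.12, so no share can pass 0.05. The tests are not independent, since shares of 1 family are tied to each other and the comparisons share libraries. As a background, levels of all genes did not overlap for 25.4% (higher) and 26.5% (lower) in neuroectoderm against hESC. The values were 26.0% and 28.7% in mesendoderm against hESC, and 27.8% and 29.4% in neuroectoderm against mesendoderm. Shares of other gene families were not computed. ENO2 made up 11.5% ± 0.41 of the summed enolase RPKM in neuroectoderm, 2.90% ± 0.32 in mesendoderm and 4.75% ± 0.60 in hESC (SD, n = 3 each). ENO3 made up 4.19% ± 0.58 in neuroectoderm, 0.468% ± 0.045 in mesendoderm and 0.673% ± 0.037 in hESC. In neuroectoderm 1, which had the lowest enolase sum of 202 RPKM, ENO2 and ENO3 still held 11.2% and 3.57%. ALDOC made up 2.85% ± 0.35 of the aldolases in neuroectoderm, 9.53% ± 0.76 in mesendoderm and 11.5% ± 2.0 in hESC.

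HK2 held a smaller share of the hexokinases in every library of both derived groups than in any hESC library, without passing the threshold. It made up 15.0% ± 0.097 in neuroectoderm, 10.9% ± 0.75 in mesendoderm and 23.8% ± 0.84 in hESC. PFKL held 36.7% ± 0.97 of phosphofructokinase in neuroectoderm, 49.4% ± 0.90 in mesendoderm and 31.5% ± 1.0 in hESC. PFKM held 35.4% ± 2.8 in neuroectoderm, 20.5% ± 0.99 in mesendoderm and 34.2% ± 1.9 in hESC. For the lactate transporters, SLC16A3 held 2.13% ± 0.91 in neuroectoderm, 25.4% ± 5.1 in mesendoderm and 0.756% ± 0.27 in hESC. The sum of both transporters was 33.3 to 45.7 RPKM in neuroectoderm, 93.4 to 102 RPKM in mesendoderm and 103 to 133 RPKM in hESC. LDHB was the larger part of lactate dehydrogenase everywhere, with 75.8% ± 0.76 in neuroectoderm, 68.1% ± 4.7 in mesendoderm and 74.3% ± 1.2 in hESC; neuroectoderm overlapped hESC.

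**Figure D3:**
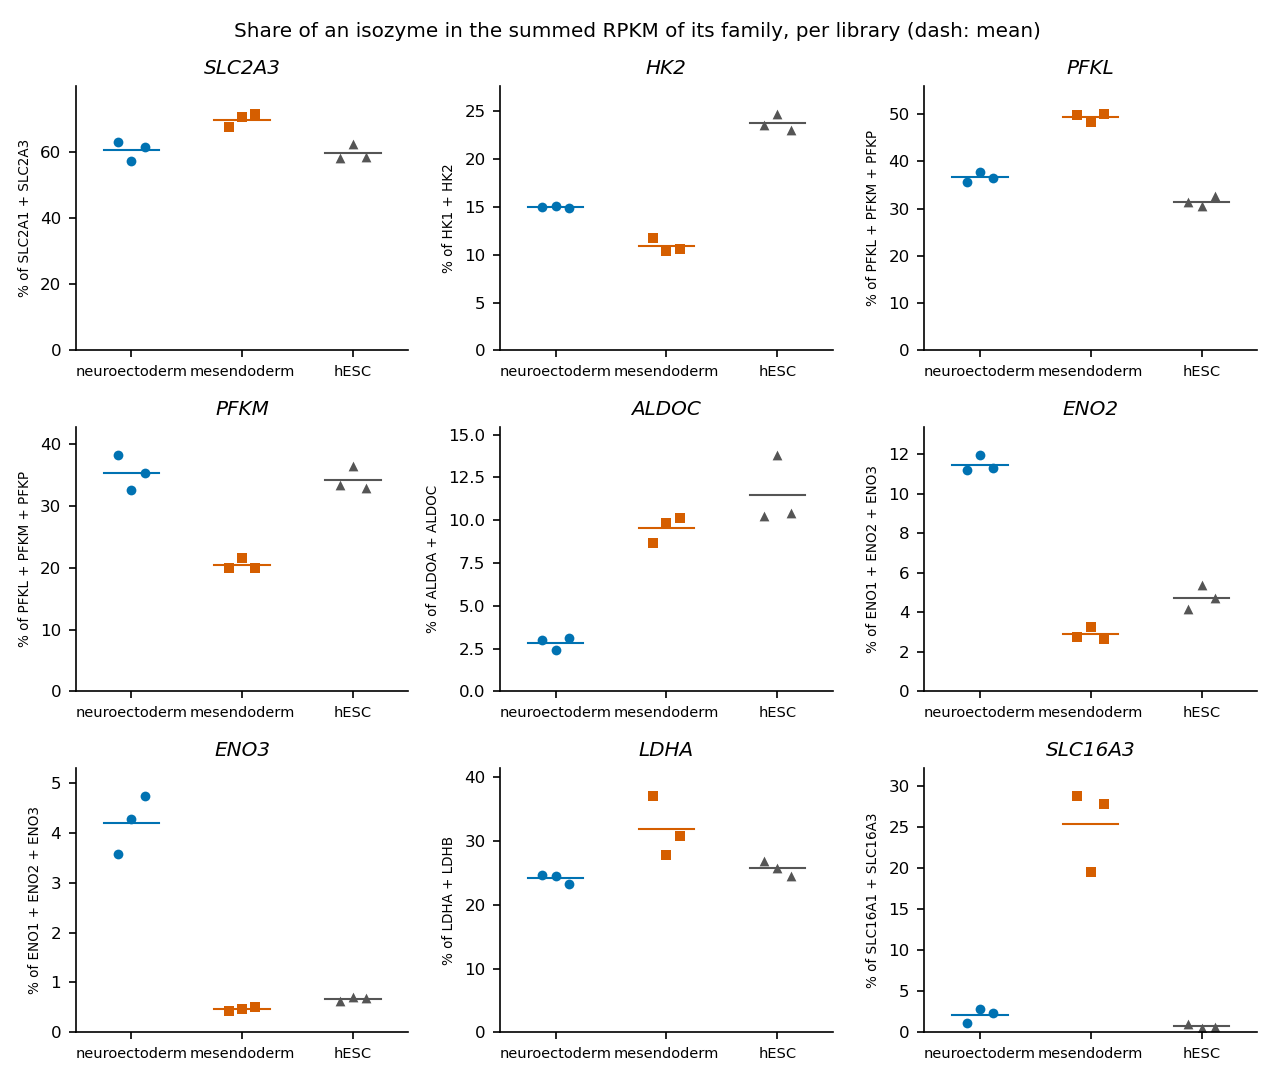
Share of 9 genes in the summed RPKM of their family (percent, axes from 0) in the neuroectoderm, mesendoderm and hESC libraries, with a dash at the mean. The ENO2 and ENO3 shares are highest in neuroectoderm, the SLC16A3 and PFKL shares in mesendoderm, and the HK2 share in hESC, each without overlap.

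Other genes of the pathway, outside the 33, were read from lists of glucose transporters, further isozymes, pyruvate carriers, pyruvate dehydrogenase regulators, pentose phosphate enzymes and the glycogen branch. Of 67 found, 47 were tested, and in neuroectoderm against hESC 7 were higher (14.9%, against 21.9% of all genes) and 16 lower (34.04%, against 22.3%), with a median difference of -0.16. Of the same 47, 12 were higher in mesendoderm than in hESC (25.5%, against 17.0% of all genes) and 10 lower (21.3%, against 18.1%). In neuroectoderm against mesendoderm 6 were higher (12.8%, against 24.0% of all genes) and 20 lower (42.6%, against 24.1%). The largest change in neuroectoderm against hESC was in UGP2, which makes the UDP-glucose used for glycogen. It averaged 18.1 ± 2.6 RPKM in neuroectoderm, 125 ± 1.7 RPKM in mesendoderm and 241 ± 24 RPKM in hESC (-3.67 ± 0.15, adjusted p = 2.56e-07 against hESC for neuroectoderm). PGM1, the phosphoglucomutase that links glycogen and glycolysis, averaged 3.26 ± 0.70 RPKM in neuroectoderm, 46.8 ± 3.2 RPKM in mesendoderm and 9.18 ± 0.20 RPKM in hESC; it was lower in neuroectoderm (-1.27 ± 0.13, adjusted p = 6.81e-05) and higher in mesendoderm (2.23 ± 0.13, adjusted p = 3.34e-06). DERA, a deoxyribose phosphate aldolase, was higher than in hESC in both, at 23.9 ± 5.7 RPKM in neuroectoderm, 17.97 ± 1.4 RPKM in mesendoderm and 8.45 ± 0.37 RPKM in hESC (1.37 ± 0.16, adjusted p = 1.80e-04 for neuroectoderm). SLC2A6, a transporter of low abundance, was lower in neuroectoderm at 1.66 ± 0.20 RPKM than in hESC at 6.02 ± 0.88 RPKM (-1.40 ± 0.11, adjusted p = 1.70e-05).

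Of 15 regulators, 6 were higher (40%, against 21.9% of all genes) and 3 lower (20%, against 22.3%) in neuroectoderm than in hESC. For mesendoderm, 6 were higher than in hESC (40%, against 17.0%) and 0 lower (against 18.1%), and in neuroectoderm against mesendoderm 4 were higher and 4 lower (26.7% each), near the 24.0% and 24.1% of all genes. TXNIP, which restrains glucose uptake and whose own transcription follows glucose, averaged 96.9 ± 17 RPKM in neuroectoderm, 8.55 ± 1.5 RPKM in mesendoderm and 4.98 ± 0.41 RPKM in hESC (4.02 ± 0.17, adjusted p = 3.35e-07 for neuroectoderm against hESC). MYC was lower in neuroectoderm, at 8.10 ± 0.80 RPKM, than in mesendoderm at 20.3 ± 3.5 RPKM and hESC at 23.0 ± 3.8 RPKM (-1.39 ± 0.16, adjusted p = 1.38e-04 against hESC). MYCN averaged 11.05 ± 5.1 RPKM in neuroectoderm, 17.7 RPKM in mesendoderm and 29.01 ± 5.3 RPKM in hESC, and fell in neuroectoderm (-1.41 ± 0.33, adjusted p = 0.00737). HIF1A, the common alpha subunit of the hypoxia-inducible factors, averaged 35.9 RPKM in neuroectoderm, 45.7 RPKM in mesendoderm and 46.3 RPKM in hESC and was not called in any comparison. EPAS1, another alpha subunit, averaged 0.243 ± 0.095 RPKM in neuroectoderm, 62.9 ± 19 RPKM in mesendoderm and 0.317 ± 0.023 RPKM in hESC (5.56 ± 0.19, adjusted p = 1.91e-07 for mesendoderm against hESC). These are transcript levels, and protein levels were not measured.

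The library neuroectoderm 1 weighed on the size of the neuroectoderm differences. The median ratio of neuroectoderm 1 to the mean of neuroectoderm 2 and 3 was 0.647 over the 33 genes, and the median difference was -0.52 in log2(RPKM + 1), against -0.15 for all genes. Across the 31 genes with known GC content that difference fell with GC (Spearman correlation of -0.598, over genes that share 1 library), as it did across 13874 genes (-0.563). TPI1, at a ratio of 0.261, PKM at 0.370 and PGD at 0.372 were the furthest below, and SLC16A1 at 1.31 and PFKFB2 at 1.30 the furthest above. Of the 17 calls in neuroectoderm against hESC, 17 were kept without this library, and ALDOC then differed by -2.81 ± 0.12, HK2 by -2.05 ± 0.10, PDK1 by -1.73 ± 0.09 and TKT by -1.13 ± 0.25. The 4 genes added were PFKL, PFKFB3, ENO2 and PKM, all higher in neuroectoderm. Over all genes the share called higher went from 21.9% to 28% without this library. The median over the 33 genes was then -0.40. In neuroectoderm against mesendoderm 20 of 23 calls were kept, and those of GPI, PGAM1 and TALDO1 were lost (limma adjusted p = 0.0671, 0.0586 and 0.0583). With the GC trend of each library removed, 15 genes were lower and 3 higher in neuroectoderm against hESC, over the 31 with known GC content. Of all genes with known GC content, 25.5% were then lower and 27.4% higher.

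**Figure D4:**
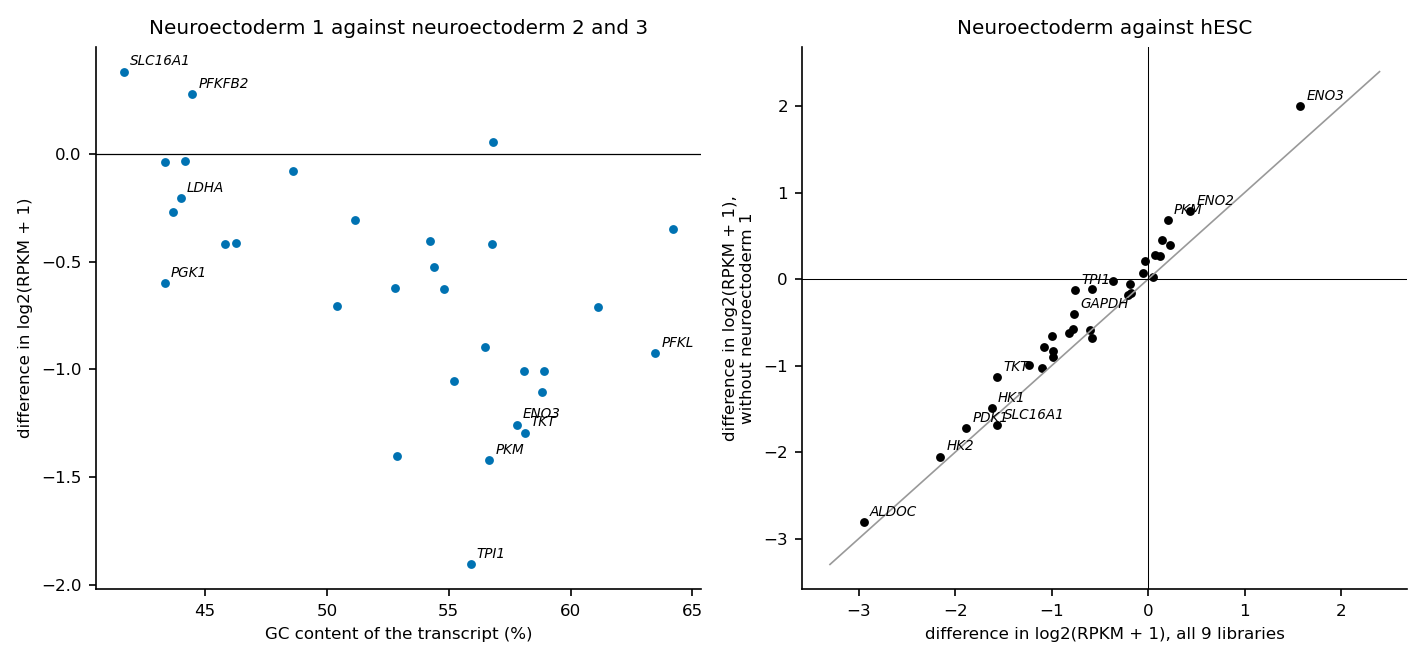
Left, difference in log2(RPKM + 1) between neuroectoderm 1 and the mean of neuroectoderm 2 and 3 against the GC content of the transcript (percent), for 31 genes. Right, difference between neuroectoderm and hESC without neuroectoderm 1 against that with all 9 libraries, for 33 genes, with the line of equality in grey: most points lie above the line, and ALDOC, HK2, PDK1, SLC16A1, HK1, TKT and LDHA stay below -1.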

How the data were processed

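The authors deposited RPKM values for 38759 RefSeq transcripts in 1 table. Per the submitters' processing notes, reads were handled with TopHat, TopHat2 2.0.13 and Bowtie2 on hg19; how reads were counted, by strand or with several matches, is not given in the sources used here. Per the labels' protocols, total RNA including small RNA was freed of DNA and ribosomal RNA before Ion Torrent library preparation. The low values were whole multiples of 1 read, within 0.1 read, for 94.8% to 96.7% of 153 to 211 values per library on transcripts of 60 to 200 bases, which gave the denominators. These cover counting error only, and count tests were not used. Rows of 1 symbol share exons (lowest correlation with the row used 0.939, for PFKFB2).

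All 9 libraries entered 1 limma 3.58.1 fit (R 4.3.3) of log2(RPKM + 1) with a mean-variance trend and group as its term; the two-sided threshold was an adjusted p of 0.05 (Benjamini-Hochberg over 14473 genes). The pseudocount understates differences of low genes. Isozyme shares were tested with exact permutation tests. In data simulated for 14473 genes, 2-fold changes were called for 71, 64 and 75 of 100 genes and 4-fold changes for 85, 93 and 94 in neuroectoderm against hESC, mesendoderm against hESC and neuroectoderm against mesendoderm. Only these genes were changed, picked among the better expressed. Noise was normal and independent between genes, without a GC trend of whole libraries. The rates need not hold for the real data, where 35.1% to 48.1% of all genes were called. Genes given with every library are those called with a difference of at least 1 and a mean of at least 5 RPKM in the higher group, and their isozyme partners; of other pathway genes up to 4 per comparison with the largest changes were named, and HIF1A, MYC and MYCN always; a further gene of that rule is not reported here. PFKL, GAPDH, TPI1, PFKFB2, PDK2, PDK3 and PDK4 were added after their values were seen. PGK2 and PDHA2 of the other pathway genes and CGB and HBE1 of the markers were not matched. Same-numbered neuroectoderm and mesendoderm libraries deviated together (correlations across genes of 0.392, 0.247 and 0.229). But neuroectoderm 3 with mesendoderm 2 had 0.241, and neuroectoderm 2 with mesendoderm 3 had 0.152. Only a library 1 with a library 2 or 3 gave values below 0 (-0.371 to -0.204). These values therefore cannot show a pairing by number, and the replicate block is given as an alternative only. Alternatives were another pseudocount, other filters, a replicate block, other scalings, GC removal, only the compared groups, the mean over transcript rows, and leaving out libraries. The members and lists were chosen with earlier results of these data known. Promoters are RefSeq's of GRCh38.p14, and no coordinates were converted.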

Additional observations from a re-analysis of the deposited data

How the results depend on the processing

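Over 21 alternatives (19 for GPI and PDK1, whose GC content is not known), 14 of the 17 calls in neuroectoderm against hESC, 6 of 10 in mesendoderm against hESC and 17 of 23 in neuroectoderm against mesendoderm were kept in every one. The counts of called genes moved by over 1.5 times as follows, and the cause was not tested. In neuroectoderm against hESC 1 gene was higher, but 2 with quantile normalization, 5 without the 3 libraries that stood apart, 3 with the GC trend removed, 2 with the GC trend removed and a replicate block, and 1 to 5 when single libraries were left out (5 without neuroectoderm 1). In neuroectoderm against mesendoderm 2 were higher, but 4 with quantile normalization, with small RNA left out, without those 3 libraries, and with the GC trend removed with or without the block, and 1 to 4 when single libraries were left out. In mesendoderm against hESC 2 were lower, but 5 when the fit held only the groups compared, 5 with small RNA left out, 7 without those 3 libraries, 4 with the GC trend removed, and 1 to 5 when single libraries were left out; 8 were higher, but 5 to 9 when single libraries were left out (5 without hESC 2 and 5 without mesendoderm 3). The median difference in mesendoderm against hESC, 0.12, ranged from -0.0248 (without hESC 2) to 0.15.

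Numbers of the hESC libraries did not pair with those of the other groups (correlations of same-numbered libraries of -0.616, -0.738 and 0.401 with neuroectoderm, and of -0.485, -0.295 and 0.0583 with mesendoderm). With the replicate block 1 gene was higher and 14 lower in neuroectoderm against hESC, 6 and 2 in mesendoderm against hESC, and 2 and 18 in neuroectoderm against mesendoderm. Of all genes, 39%, 29.2% and 43.2% were called with the block, in the same order.

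Signs turned for differences that were not called in either setting. In neuroectoderm against hESC, PFKM had 0.14 with quantile normalization and 0.14 without the 3 libraries, and -0.17 to 0.21 when single libraries were left out. SLC16A3 there had 0.069 with quantile normalization, 0.00039 without the 3 libraries, 0.11 with the GC trend removed, 0.11 with the block added, and -0.12 to 0.0685 when single libraries were left out. When single libraries were left out, PFKFB4 had -0.0126 to 0.097, SLC2A1 -0.0579 to 0.28, PFKL -0.0808 to 0.45 and PKM -0.0758 to 0.68 in that comparison. The upper ends for PFKL and PKM, without neuroectoderm 1, kept their sign and were called (limma adjusted p = 0.039 and 0.0217). In mesendoderm against hESC PFKFB2 had 7.8e-05 as the mean over transcript rows and -0.0894 to 0.00964 when single libraries were left out. Likewise PGAM1 had -0.29 to 0.0797, ALDOA -0.0283 to 0.31, TPI1 -0.15 to 0.32, ENO1 -0.0022 to 0.32, ALDOC -0.16 to 0.00815 and TALDO1 -0.36 to 0.00788. In neuroectoderm against mesendoderm PGD had -0.68 to 0.0589 and RPIA -0.0817 to 0.14. The difference in share between neuroectoderm and hESC, in percentage points, was -0.307 to 2.58 for SLC2A3, -0.252 to 2.54 for PFKM and -1.26 to 2.13 for PFKFB4 when single libraries were left out, and -1.45 for PFKFB4 without the 3 libraries. Where leaving out libraries left 2 in a group, the fit pooled the spread of all groups. Differences of genes near the floor of 3 reads were not read.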
